A study of Mus musculus with 12 samples.

Results

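The acute phase response genes described here were Lcn2, Saa3, Saa4, Fgl1, Socs3, Hp, Hpx, Itih4, Apcs and Icam1, which are 10 of the 18194 genes named on the array. They were taken by symbol alone: every probe set annotated with exactly 1 of these names was used, which gave 13 of 45101 probe sets. Saa4 had 2 probe sets, Socs3 had 3, and the other 8 genes had 1 each. No probe set was removed for low signal.

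When tissue is injured or infected, macrophages release interleukin-6, interleukin-1 and tumor necrosis factor. Hepatocytes answer by changing the plasma proteins that they secrete, through the transcription factors STAT3, NF-kappaB and C/EBP. Serum amyloid A, haptoglobin, hemopexin and, in mice, serum amyloid P component are such products, while SOCS3 is induced by the same signal and blocks further signaling from the interleukin-6 receptor.

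Liver RNA of male mice on the 129J background was hybridized to 12 Affymetrix arrays, 3 per group, and the deposited values were log2 intensities. The KO 24 months tumor group held hepatocellular carcinoma tumors of Iqgap2-/- mice at 24 months of age, and the KO 6 months group held normal liver of Iqgap2-/- mice at 6 months. The WT 24 months and WT 6 months groups held normal liver of wild-type mice at these ages. Iqgap2 encodes a scaffold protein, and the knockout was a conventional one and not limited to hepatocytes. Each array was labelled a biological replicate.

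Iqgap2, the deleted gene, went against the labels of 2 groups. On probe set 1433885_at it read 12.15, 12.05 and 12.15 in the arrays labelled KO 24 months tumor and 8.12, 8.68 and 8.07 in those labelled KO 6 months. The readings were 12.28, 12.30 and 11.92 for the label WT 24 months and 8.38, 8.24 and 8.33 for the label WT 6 months. Iqgap2 was thus high in the arrays labelled KO 24 months tumor and low in those labelled WT 6 months, as it would be with these 2 labels exchanged. The labels were kept, and every direction by genotype or age below holds for the labels only. With the 2 labels exchanged, the 6 arrays labelled KO would be the 6 of 6-month-old mice and the 6 labelled WT those of 24-month-old mice. WT 24 months against WT 6 months would then compare wild-type liver with tumor at 24 months, and KO 24 months tumor against KO 6 months would compare wild-type with knockout liver at 6 months. The value of each array and the size of each difference would stay as they are.

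Of 12 hepatocyte markers 11 were measured, and all 11 lay above the array median in every array of the 4 groups. The tissue was not sorted, so fewer cells of a type and less RNA per cell cannot be told apart. With 3 arrays against 3, an exact two-sided permutation p cannot fall below 0.1, and the number of arrays limits the precision. All adjusted p values below come from limma over all probe sets.

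The promoters of Lcn2, Apcs, Socs3 and Icam1 are shown because these genes carried the differences by label described below. Each is the 250 bases before the RefSeq start in GRCm38.p6, read from 5′ to 3′ on the strand of the gene, with matches to 3 motifs in capitals. The motifs were TTCNNNGAA for STAT3, GGNNNTTCC for NF-kappaB and TTGCNNAA for C/EBP, on both strands, and no matches overlapped. The windows lie at chr2:32387740-32387989, minus strand (Lcn2), chr1:172895055-172895304, minus strand (Apcs), chr11:117969367-117969616, minus strand (Socs3) and chr9:21015690-21015939, plus strand (Icam1).
Lcn2 promoter: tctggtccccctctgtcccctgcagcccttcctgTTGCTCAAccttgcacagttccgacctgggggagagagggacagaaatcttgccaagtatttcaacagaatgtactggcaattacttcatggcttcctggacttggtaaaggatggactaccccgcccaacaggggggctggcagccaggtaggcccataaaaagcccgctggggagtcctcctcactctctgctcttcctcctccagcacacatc
Apcs promoter: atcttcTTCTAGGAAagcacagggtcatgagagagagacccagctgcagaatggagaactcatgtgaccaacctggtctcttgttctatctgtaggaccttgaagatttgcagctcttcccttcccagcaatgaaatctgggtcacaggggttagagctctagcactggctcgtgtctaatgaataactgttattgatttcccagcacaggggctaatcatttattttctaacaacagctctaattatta
Socs3 promoter: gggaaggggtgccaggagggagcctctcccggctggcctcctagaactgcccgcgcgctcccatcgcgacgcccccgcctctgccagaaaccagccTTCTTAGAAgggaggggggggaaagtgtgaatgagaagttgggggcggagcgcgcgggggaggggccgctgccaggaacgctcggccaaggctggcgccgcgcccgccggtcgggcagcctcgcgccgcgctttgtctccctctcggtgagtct
Icam1 promoter: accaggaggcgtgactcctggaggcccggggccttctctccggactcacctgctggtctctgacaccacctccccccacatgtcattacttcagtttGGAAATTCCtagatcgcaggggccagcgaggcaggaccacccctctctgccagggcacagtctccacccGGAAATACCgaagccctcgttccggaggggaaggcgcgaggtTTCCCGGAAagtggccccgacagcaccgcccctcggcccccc
The C/EBP match of Lcn2 began 216 bases before the start. The STAT3 matches began 244 bases before it in Apcs, 154 in Socs3 and 42 in Icam1, and the NF-kappaB matches of Icam1 began 153 and 84 bases before it. Of the 10 members 8 were in the promoter table. The STAT3 motif was in 4 of these 8 windows (Socs3, Itih4, Apcs and Icam1), against 7.02% of all 32851 windows of that length. The C/EBP motif was in 4 (Lcn2, Saa3, Saa4 and Hpx), against 9.56% of all windows, and the NF-kappaB motif in 2 (Saa3 and Icam1), against 15.7%. A match describes the letters in the window only.

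By label, Lcn2, Fgl1 and Apcs were lower in KO than in WT at both ages, and Socs3, Icam1 and Hp were lower at 6 months. In KO 24 months tumor against WT 24 months, 3 of the 13 probe sets passed an adjusted p under 0.05 as lower and 0 as higher, where 0.115% of all probe sets were lower and 0.122% higher. In KO 6 months against WT 6 months 8 probe sets of 6 genes were lower and 0 higher, against 6.02% lower and 6.10% higher of all probe sets. The median difference of the 13 was -0.96 at 24 months and -1.37 at 6 months, while the median over all probe sets was 0.05 and 0.04. These comparisons share no arrays. All 6 arrays labelled KO lay below all 6 labelled WT for 8 of the 13 probe sets, against 1.20% of all probe sets, and above them for 0, against 2.60%. These 8 were the 8 called at 6 months.

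KO 6 months and WT 24 months are the groups that Iqgap2 does not go against, and they differ in both genotype and age. Chosen after seeing the data, a fit of these 6 arrays alone called 0 of the 13 probe sets higher or lower, with adjusted p between 0.0567 (Socs3 1456212_x_at) and 0.932 (Saa4 1419318_at). It called 0.00222% of all probe sets higher and 0.00443% lower. Of the 13, 9 had an unadjusted p under 0.05, as did 11.6% of all probe sets. Lcn2 differed by -6.13 (SE 0.67, adjusted p = 0.0881) and Fgl1 by -3.01 (SE 0.32, adjusted p = 0.0881).

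**Figure D1:**
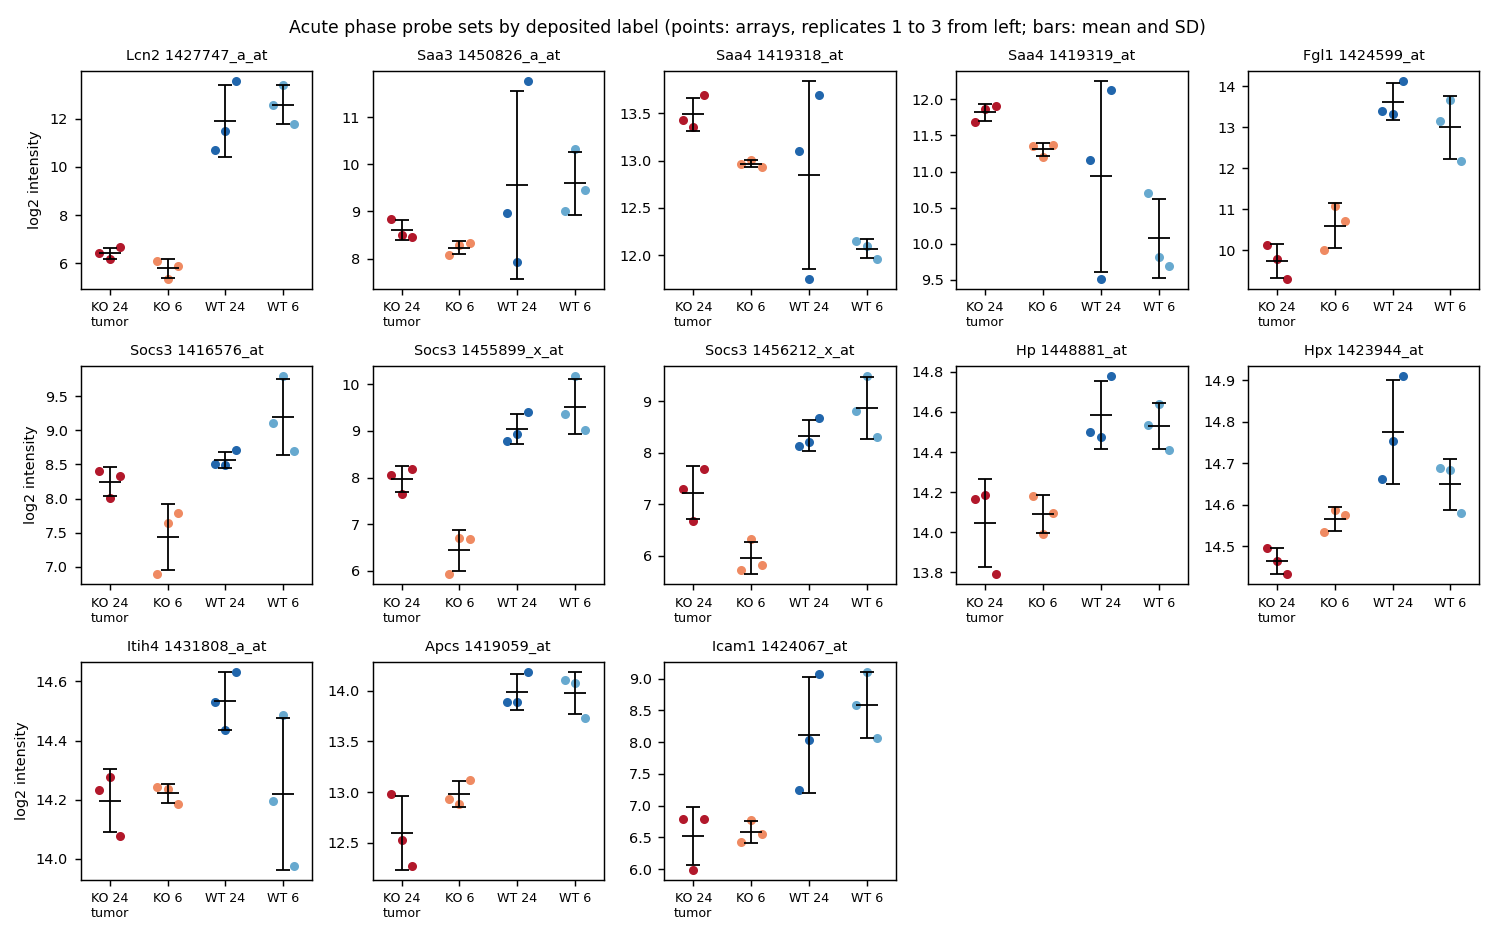
Log2 intensity (vertical axis, with its own range in each panel) of the 13 acute phase probe sets in each array, by deposited label (horizontal axis); points are arrays and bars the mean and SD of 3. For Lcn2 the 6 arrays labelled KO lie at 6.66 or below and the 6 labelled WT at 10.71 or above, and Saa3 and Saa4 have their widest bars in WT 24 months.

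Lcn2 encodes lipocalin 2, which binds bacterial siderophores and so withholds iron. Its probe set 1427747_a_at read 6.42, 6.20 and 6.66 in the arrays labelled KO 24 months tumor, against 10.71, 11.48 and 13.59 in those labelled WT 24 months. The arrays labelled KO 6 months had 6.11, 5.36 and 5.90, and those labelled WT 6 months had 12.57, 13.39 and 11.80. The arrays labelled KO were low throughout, those labelled WT were high, and the groups did not overlap. The log2 difference was -5.50 at 24 months (SE 0.60, adjusted p = 0.00594), which is 45.1-fold lower. It was -4.66 (25.4-fold lower) without WT 24 months replicate 3 and -6.10 (68.8-fold lower) without replicate 1, and it did not pass in a fit of these 2 groups alone (adjusted p = 0.0656). At 6 months it was -6.80 (SE 0.60, adjusted p = 3.05e-05). No fold is given there, because the arrays labelled KO 6 months lay close to the array medians of 5.41 to 5.45, with replicate 2 below them, and the values used hold no call of detection.

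Fgl1 encodes fibrinogen-like protein 1, a hepatocyte product that interleukin-6 induces. It read 10.13, 9.79 and 9.31 in the arrays labelled KO 24 months tumor and 13.39, 13.33 and 14.14 in those labelled WT 24 months. The arrays labelled KO 6 months had 10.005, 11.09 and 10.71, and those labelled WT 6 months had 13.16, 13.67 and 12.17. The groups of each age did not overlap, and the 2 lowest values were tumor arrays. By label Fgl1 was 14.7-fold lower in KO at 24 months (-3.87 on the log2 scale, SE 0.39, adjusted p = 0.00505). In those of 6 months it was 5.27-fold lower, with a difference of -2.40 (SE 0.39, adjusted p = 0.00222).

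Apcs encodes serum amyloid P component, the main acute phase pentraxin of mice. It read 12.99, 12.53 and 12.27 in the arrays labelled KO 24 months tumor, against 13.89, 13.88 and 14.19 in those labelled WT 24 months. The arrays labelled KO 6 months had 12.93, 12.88 and 13.12, and those labelled WT 6 months had 14.11, 14.08 and 13.74. All arrays labelled KO lay below all labelled WT. The differences were -1.39 at 24 months (SE 0.18, adjusted p = 0.0151) and -0.997 at 6 months (SE 0.18, adjusted p = 0.00362), with folds of 2.62 and 2.00. At 24 months the difference of Apcs did not pass without KO 24 months tumor replicate 2 (-1.36, adjusted p = 0.104) or replicate 3 (-1.23, adjusted p = 0.0549), nor did that of Lcn2 without replicate 2 (-5.38, adjusted p = 0.0575).

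In the heme- and hemoglobin-binding proteins and Itih4, KO lay below WT by 0.54 or less on the log2 scale wherever it was lower. Hp encodes haptoglobin, which binds free hemoglobin. It read 14.16, 14.18 and 13.79 in the arrays labelled KO 24 months tumor and 14.50, 14.48 and 14.78 in those labelled WT 24 months, a difference of -0.54 (SE 0.13, adjusted p = 0.113). At 6 months it read 14.18, 13.99 and 14.10 in KO and 14.53, 14.64 and 14.41 in WT, and the difference of -0.44 passed (SE 0.13, adjusted p = 0.0495). Neither age had overlapping groups, and the call at 6 months was lost in 10 of the 12 fits that left out 1 array each, all but those without KO 24 months tumor replicate 3 and WT 24 months replicate 3, with adjusted p of up to 0.161. Hpx encodes hemopexin, which binds heme, and its 12 arrays lay between 14.43 and 14.91. Its difference was -0.31 at 24 months (95% CI -0.50 to -0.12, adjusted p = 0.153) and -0.08 at 6 months (95% CI -0.28 to 0.11). Itih4 encodes a heavy chain of the inter-alpha-trypsin inhibitor family and lay between 13.97 and 14.63. It differed by -0.34 at 24 months (95% CI -0.61 to -0.07, adjusted p = 0.242) and by 0.00 at 6 months (95% CI -0.27 to 0.28). The highest log2 intensity of any probe set was 15.3, and the part of signal saturation in these small differences was not tested.

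Socs3, which encodes the feedback inhibitor of interleukin-6 receptor signaling, was measured by 3 probe sets. The 2 with names ending in x_at hold probes that may match other transcripts. On 1455899_x_at it read 8.05, 7.65 and 8.19 in the arrays labelled KO 24 months tumor and 8.79, 8.93 and 9.40 in those labelled WT 24 months. At 6 months it read 5.93, 6.71 and 6.68 in KO and 9.37, 10.17 and 9.01 in WT. The arrays labelled KO 6 months were thus the lowest, those labelled KO 24 months tumor lay between, and no labelled KO array reached a WT array. At 6 months all 3 probe sets were lower in KO, with -3.08 on this one (SE 0.30, adjusted p = 6.79e-05), -2.91 on 1456212_x_at (SE 0.31, adjusted p = 0.000147) and -1.76 on 1416576_at (SE 0.27, adjusted p = 0.00174). At 24 months the same probe sets gave -1.07, -1.11 and -0.32, with adjusted p of 0.152, 0.153 and 0.611.

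The difference between these 2 comparisons was itself tested as an interaction, and 1 of the 13 probe sets passed as higher and 0 as lower, against 1.72% higher and 1.42% lower of all probe sets. It was Socs3 1455899_x_at, at 2.00 (SE 0.43, adjusted p = 0.0270). The other Socs3 probe sets had 1.80 (1456212_x_at, adjusted p = 0.0544) and 1.44 (1416576_at, adjusted p = 0.0769). The call was lost without KO 24 months tumor replicate 1 or 3 (1.96 and 1.89), KO 6 months replicate 1 (1.75) or WT 24 months replicate 1 or 2 (1.88 and 1.95), with adjusted p between 0.0524 and 0.0760. The size of the interaction does not depend on whether the 2 labels are exchanged. For Lcn2 the interaction was 1.30 (95% CI -0.56 to 3.16), and for Fgl1 it was -1.48 (95% CI -2.69 to -0.27, adjusted p = 0.219).

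Icam1 encodes the endothelial and hepatocyte adhesion molecule that leukocytes bind through integrins. It read 6.78, 5.99 and 6.79 in the arrays labelled KO 24 months tumor and 7.24, 8.04 and 9.07 in those labelled WT 24 months. The arrays labelled KO 6 months had 6.43, 6.78 and 6.55 and those labelled WT 6 months had 8.59, 9.11 and 8.07. All arrays labelled KO lay below all labelled WT. The difference at 6 months was -2.00 (SE 0.40, adjusted p = 0.00771), 4.01-fold lower. At 24 months it was -1.59 (SE 0.40, adjusted p = 0.125), and it passed without WT 24 months replicate 1 (-2.03, adjusted p = 0.0221).

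In the RefSeq gene order on mouse chromosome 7 the serum amyloid A genes follow each other as Saa3, Saa4, Saa1 and Saa2. Saa3, which macrophages and adipocytes also express, read 8.85, 8.51 and 8.46 in the arrays labelled KO 24 months tumor and 8.98, 7.93 and 11.78 in those labelled WT 24 months. The arrays of 6 months had 8.08, 8.28 and 8.33 in KO and 9.01, 10.33 and 9.46 in WT. At 24 months the groups overlapped and the difference was -0.96 (95% CI -2.55 to 0.63), which became 0.15 without WT 24 months replicate 3. At 6 months they did not overlap, and the difference of -1.37 (SE 0.73, adjusted p = 0.265) passed without that array (adjusted p = 0.0149), whose removal narrows the spread shared by all groups.

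Saa4 encodes the serum amyloid A of high density lipoprotein that is made constitutively in humans. On 1419318_at it read 13.43, 13.35 and 13.69 in the arrays labelled KO 24 months tumor and 13.10, 11.75 and 13.70 in those labelled WT 24 months. At 6 months it read 12.97, 13.003 and 12.93 in KO and 12.16, 12.10 and 11.96 in WT. At 6 months every KO array thus lay above every WT array. The difference at 6 months was 0.90 on this probe set (SE 0.35, adjusted p = 0.130) and 1.24 on 1419319_at (SE 0.50, adjusted p = 0.138). Both passed without WT 24 months replicate 2 (adjusted p of 0.00309 and 0.0148) and without replicate 3 (adjusted p of 0.0392 and 0.0400). At 24 months the groups overlapped and the differences were 0.64 (95% CI -0.14 to 1.42) and 0.89 (95% CI -0.20 to 1.97). They were 0.09 and 0.18 without WT 24 months replicate 2, and 1.07 and 1.49 without replicate 3.

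**Figure D2:**
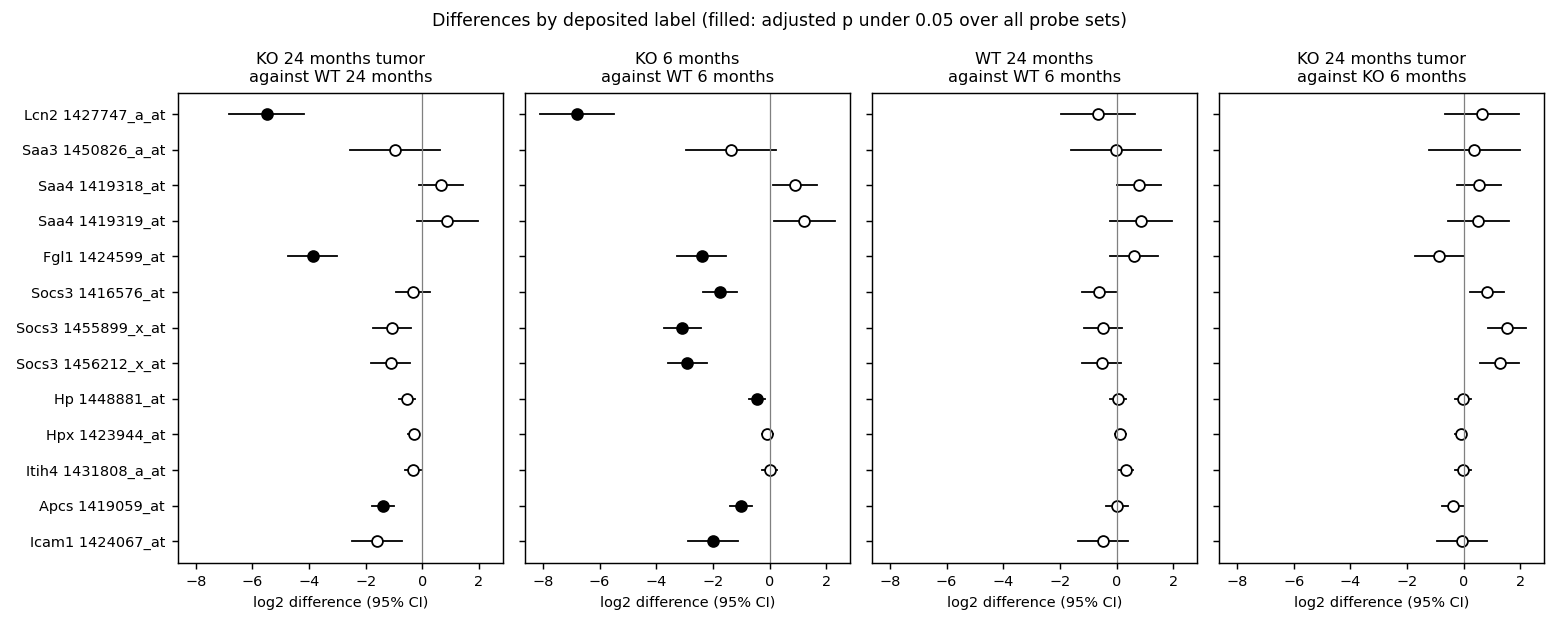
Log2 difference (horizontal axis) with its 95% confidence interval for each acute phase probe set (rows) in the 4 comparisons by deposited label; filled points had an adjusted p under 0.05 over all probe sets. There are 3 filled points for KO 24 months tumor against WT 24 months, 8 for KO 6 months against WT 6 months and 0 in both comparisons by age.

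By labelled age, none of the acute phase probe sets passed limma's test over all 12 arrays. In WT 24 months against WT 6 months limma called 0 of the 13 higher and 0 lower, against 3.79% higher and 4.95% lower of all probe sets, and 3 had an unadjusted p under 0.05, as did 20.7% of all probe sets. In KO 24 months tumor against KO 6 months limma also called 0 higher and 0 lower, against 0.0177% and 0.00222% of all probe sets, and 4 had an unadjusted p under 0.05, as did 6.11% of all probe sets. SAM, the test of the methods, called 0 in the first and 1 in the second, Socs3 1455899_x_at. That probe set was higher by 1.52 in the tumor arrays by label (95% CI 0.86 to 2.18, limma adjusted p = 0.265, SAM q = 0.0458). The share of all probe sets that SAM called is not given here. The calls by age in WT moved with single arrays: without WT 24 months replicate 3 Lcn2 was lower by label at 24 months (-1.50, adjusted p = 0.0382), and without replicate 2 both Saa4 probe sets were higher (1.33 and 1.57, adjusted p of 0.000861 and 0.0112). Without WT 6 months replicate 2 Itih4 was higher (0.45, adjusted p = 0.0407).

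The spread within WT 24 months was wide for some members and narrow for others. The SD of the 3 arrays was 1.99 for Saa3, larger than in 99.7% of all probe sets of that group, and 1.49 for Lcn2, larger than in 99.3%. The SDs of 1.00 and 1.32 for Saa4 and 0.92 for Icam1 also exceeded those of over 97% of probe sets. The plasma proteins Hp, Hpx, Itih4 and Apcs had SDs of 0.17, 0.12, 0.10 and 0.18, beside a median of 0.16 over all probe sets. The median SD of the 13 was 0.22 in KO 24 months tumor, 0.14 in KO 6 months, 0.32 in WT 24 months and 0.55 in WT 6 months, where all probe sets had 0.14, 0.13, 0.16 and 0.14. The arrays labelled WT 6 months were thus spread as well. The range over the 3 arrays of WT 24 months ranked 70 among 18194 genes for Saa3, 185 for Lcn2, 491 for Saa4, 574 for Icam1 and 2300 for Fgl1.

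WT 24 months replicate 3 was the highest of its group for all 13 probe sets, whereas it was the highest for 27.5% of all probe sets. It was also the highest of all 12 arrays for 9 of the 13. The lowest of the group was replicate 2 for 8 probe sets and replicate 1 for 5. For the counts over 12 arrays and of the lowest array, the share of all probe sets is not given. They describe the members only. The median SD of the 13 in WT 24 months was 0.07 without replicate 3. That SD is of 2 arrays, and the array left out was picked as the highest, which favors a narrower spread. The same median over all probe sets is not given, so the drop describes these values only. The genes of the liver's inducible serum amyloid A varied in the same arrays: Saa2 read 10.73, 7.76 and 14.32, and Saa1 read 12.51, 8.98 and 14.39 in WT 24 months replicates 1 to 3. Replicate 2 was thus the lowest of all 12 arrays for both. Saa1 and Saa2, like Hamp and Hamp2 described below, are near-identical copies whose probe sets may share signal. Probe sets of the related Orm genes may share signal too, but those of Orm2 and Orm3 differed. The mean of Orm2 was 10.19 in WT 24 months and 11.31 in WT 6 months, and that of Orm3 was 8.84 and 5.27.

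Markers of other cells moved with that array. The summed intensity of 14 macrophage markers, on the log2 scale, was between 11.6 and 12.0 in KO 24 months tumor and between 12.2 and 12.4 in KO 6 months. It was 12.4, 13.2 and 15.9 in WT 24 months replicates 1 to 3 and between 12.4 and 13.02 in WT 6 months, so replicate 3 stood apart. Each marker but Cd163 was highest there within that group. Cd163 had 7.65, 8.65 and 5.57 in WT 24 months and 5.89, 5.15 and 3.79 in WT 6 months. By limma 0 of the 14 passed in KO 24 months tumor against WT 24 months and 0 by age in KO. As higher, 1 passed in KO 6 months against WT 6 months and 2 by age in WT, with 0 lower. Of all genes 8.14% and 5.39% were higher in these 2 comparisons. Of these markers 12, 13, 13 and 11 lay above the array median in all 3 arrays of KO 24 months tumor, KO 6 months, WT 24 months and WT 6 months. The sum of 13 neutrophil markers was between 8.99 and 9.36 in KO 24 months tumor and between 8.93 and 9.07 in KO 6 months. It was 9.52, 9.89 and 12.3 in WT 24 months and 11.7, 10.8 and 9.62 in WT 6 months. The sums of WT 24 months replicate 3 and WT 6 months replicate 1 were led by Prtn3, S100a8 and S100a9. That of WT 6 months replicate 2 was led by Prtn3 alone (10.35), with S100a8 at 6.13 and S100a9 at 6.32. These genes were named after their values were seen, and each overlapped between the arrays labelled KO and WT. limma called 0 of the 13 in each of the 4 comparisons, with 3, 3, 1 and 1 at an unadjusted p under 0.05 in KO against WT at 24 and 6 months and by age in WT and KO. Of these neutrophil markers 2, 3, 6 and 5 lay above the array median in all 3 arrays of KO 24 months tumor, KO 6 months, WT 24 months and WT 6 months. The sum of 13 endothelial markers was between 12.0 and 12.8 in KO 24 months tumor, KO 6 months and WT 24 months. It was between 10.5 and 11.1 in WT 6 months. limma called 10 of the 13 higher in KO 6 months and 11 in WT 24 months, each against WT 6 months. Of all genes 8.14% and 5.39% were higher there. The sum of the hepatocyte markers was between 17.5 and 17.9 in all arrays, led by genes near the highest intensity of 15.3. The hepatocyte marker Cps1 read 11.49, 12.45 and 10.10 in WT 6 months and between 14.11 and 14.43 in the other arrays. limma called 2 of the 11 hepatocyte markers higher and 1 lower in KO 6 months against WT 6 months. The sum of 11 lymphocyte markers was between 9.15 and 9.40 in KO 24 months tumor and between 9.46 and 9.61 in KO 6 months. It was between 9.39 and 9.87 in WT 6 months. In WT 24 months it was 9.83, 9.78 and 11.4, so replicate 3 stood apart here too. The sum was led there by Ptprc (10.72), which leukocytes other than lymphocytes also express. All of these markers but Cd8a, Cd79a and Jchain were highest in replicate 3 of that group. Jchain ran the other way, with 8.40, 8.18 and 7.17. The sum of 6 adipocyte markers was between 8.502 and 8.67 in KO 24 months tumor and between 8.57 and 8.73 in KO 6 months. It was between 8.25 and 9.37 in WT 24 months and between 9.88 and 10.6 in WT 6 months. Pparg led the sum in WT 6 months, with 10.21, 9.50 and 9.73. Adipoq, Lep and Cidec lay below the array median in every array, and Retn lay between 6.12 and 6.79. Fabp4 overlapped between WT 6 months and each other group. Of the adipocyte markers Pparg was lower in KO 6 months (-2.75, adjusted p = 3.96e-05) and in WT 24 months (-3.06, adjusted p = 2.03e-05), each against WT 6 months. The part of other cells in the differences of Lcn2, Saa3, Icam1 and Socs3, which leukocytes also express, was not tested.

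**Figure D3:**
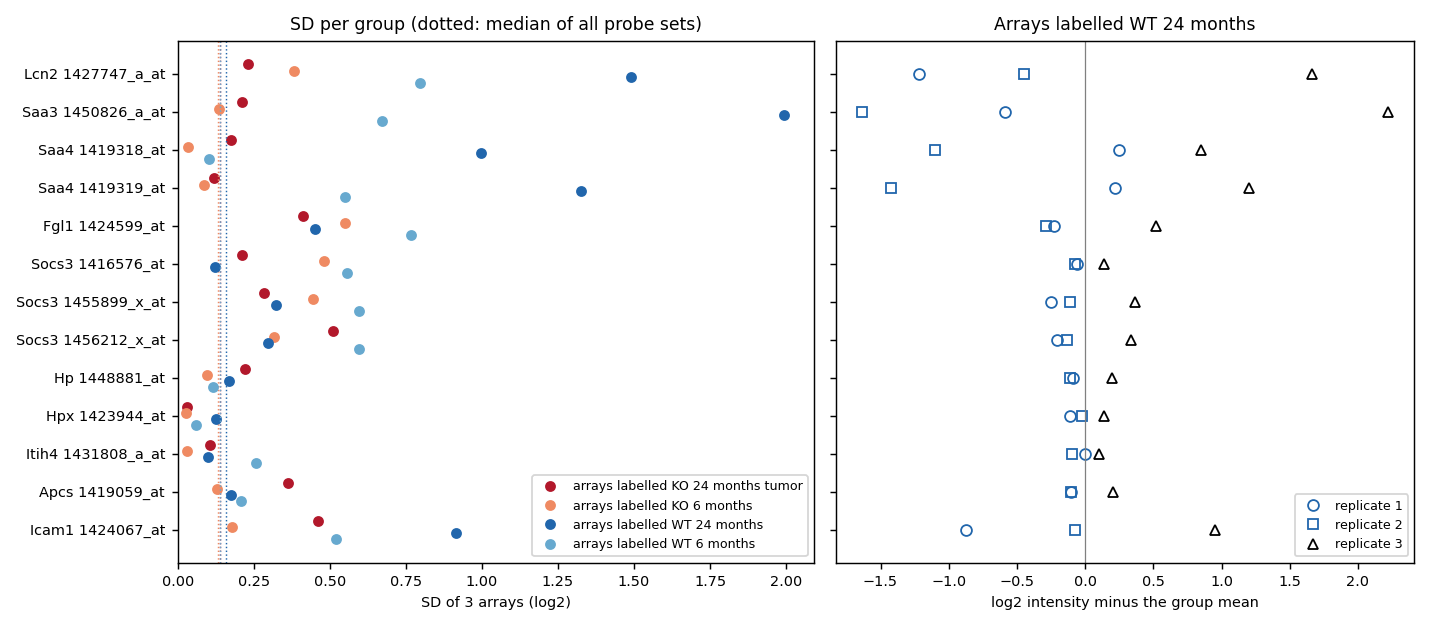
Left, SD of the 3 arrays (horizontal axis, log2) of each acute phase probe set (rows) in the 4 labelled groups, with dotted lines at the median of all probe sets; right, each array labelled WT 24 months minus the group mean (log2). Replicate 3 is the highest for all 13 probe sets on the right, and Saa3 and Lcn2 have SDs of 1.99 and 1.49 in WT 24 months on the left.

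Across the 12 arrays, the members other than Saa4 varied together. The 36 pairs without Saa4, each gene by its brightest probe set, had Pearson's r between 0.29 and 0.97. The 9 pairs with Saa4 had r between -0.56 and 0.13, of which 7 were below 0. The arrays share the group differences and replicate 3 of WT 24 months, so these are descriptions. Over the 12 arrays, the genes most like Apcs were Fgl1 (r = 0.97), Hp (r = 0.94) and Tmem176b (r = 0.92). Those most like Hp were Hars, Apob and Apcs (r = 0.94 each), and those most like Lcn2 were H2-K1, Snx10 and Smad1 (r = 0.95 each).

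Other acute phase genes were taken from lists chosen with earlier results of these data known, each gene by its brightest probe set. Of 28 further genes that rise in the acute phase, not all of which encode secreted proteins, 25 were measured. In KO 24 months tumor against WT 24 months 0 were higher and 1 lower, where 0.192% of all genes were higher and 0.121% lower. The 1 was Mt2, with 8.96, 9.001 and 9.03 in the tumor arrays and 12.71, 12.89 and 13.68 in WT (-4.10, SE 0.58, adjusted p = 0.0221). It encodes metallothionein 2, which binds metals within the cell and is not a secreted protein. In KO 6 months against WT 6 months 3 were higher and 5 lower, against 8.14% and 7.48% of all genes. Hamp and Hamp2, of the family of the iron hormone hepcidin, were higher (4.26 and 4.43, adjusted p of 0.0114 and 0.00304), as was F8, coagulation factor VIII (0.73, adjusted p = 0.00734). The lower ones were Orm2, an orosomucoid (-3.61, adjusted p = 0.0218), Mt2 (-2.58, adjusted p = 0.0139), the lipopolysaccharide-binding protein gene Lbp (-1.19, adjusted p = 0.00281), Lrg1 (-0.98, adjusted p = 0.0460) and the ceruloplasmin gene Cp (-0.42, adjusted p = 0.0171). The median of the 25 was -0.38 at 24 months and -0.19 at 6 months, beside 0.04 and 0.05 over all genes.

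By labelled age in WT, 9 of these 25 were higher at 24 months and 0 lower, against 5.39% and 6.36% of all genes, with a median of 0.46 beside 0.01. The smallest adjusted p values were those of Orm3 (3.57, adjusted p = 5.13e-05), Mt2 (3.07, adjusted p = 0.00626), Hamp2 (3.99, adjusted p = 0.00660), Itih3 (0.69, adjusted p = 0.0139) and Hamp (4.05, adjusted p = 0.0176). Hamp read 14.48, 14.54 and 13.48 in WT 24 months against 10.10, 12.74 and 7.49 in WT 6 months, so the arrays labelled WT 6 months were low and spread. In KO 24 months tumor against KO 6 months 0 were higher and 0 lower, against 0.0220% and 0% of all genes. Orm2 followed Lcn2 in part, with 8.56, 7.74 and 7.85 in KO 24 months tumor, 7.93, 7.51 and 7.67 in KO 6 months, 8.99, 8.65 and 12.95 in WT 24 months and 11.04, 12.29 and 10.60 in WT 6 months. Its 6 arrays labelled KO lay below its 6 labelled WT.

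Of 14 plasma proteins that fall in the acute phase 12 were measured. Igf1, insulin-like growth factor 1, was higher in KO 6 months than in WT 6 months (1.53, adjusted p = 3.07e-06) and in WT 24 months than in WT 6 months (1.34, adjusted p = 8.94e-06), with an interaction of -1.39 (adjusted p = 0.000237). Serpina6, which encodes corticosteroid-binding globulin, was lower in WT 24 months than in WT 6 months (-1.94, adjusted p = 0.00288). The other 10 passed in none of the 4 comparisons. Of 10 cytokines 9 were measured and 0 passed in any of them. Il6, Il10, Ifng, Lif and Il11 lay below the array medians of 5.41 to 5.45 in every array. The values used hold no call of detection, so the lack of a call for these genes cannot show that they were unchanged.

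Of 24 receptors and signal carriers 22 were measured. In KO 24 months tumor against WT 24 months the transcription factor gene Cebpd was lower (-1.59, adjusted p = 0.0459) and 0 were higher. In KO 6 months against WT 6 months 4 were higher, namely Il1rap (1.53, adjusted p = 0.000856), Cebpa (1.07, adjusted p = 0.00212), the interleukin-6 receptor subunit gene Il6st (0.93, adjusted p = 0.00285) and Lifr (1.39, adjusted p = 0.0215). The interleukin-1 receptor gene Il1r1 was lower (-1.68, adjusted p = 6.30e-05). In WT 24 months against WT 6 months Il6st, Il1rap, Cebpa and Cebpb were higher, by 0.64 to 1.402, and Il1r1 was lower (-0.80, adjusted p = 0.00985).

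Of 15 feedback inhibitors besides Socs3 all 15 were measured, and 0 passed at 24 months between KO tumors and WT. In KO 6 months against WT 6 months the phosphatase gene Dusp1 (2.00, adjusted p = 0.000987), the mRNA decay factor gene Zfp36 (1.33, adjusted p = 0.00188) and Pias3 (0.61, adjusted p = 0.01004) were higher and Nfkbib was lower (-0.37, adjusted p = 0.0332). Dusp1 and Zfp36 were also higher in WT 24 months than in WT 6 months (2.67 and 0.85, adjusted p of 0.000159 and 0.0281). They had interactions of -2.61 and -1.31 (adjusted p of 0.00455 and 0.0373), where Socs3 1455899_x_at had 2.00. Of 10 adhesion molecules and their ligands all 10 were measured, and Cd44, the hyaluronan receptor, passed. It was lower in KO 6 months than in WT 6 months (-3.29, adjusted p = 0.00167) and in WT 24 months than in WT 6 months (-1.94, adjusted p = 0.0368). In KO 24 months tumor against KO 6 months 0 genes of the 6 lists passed.

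**Figure D4:**
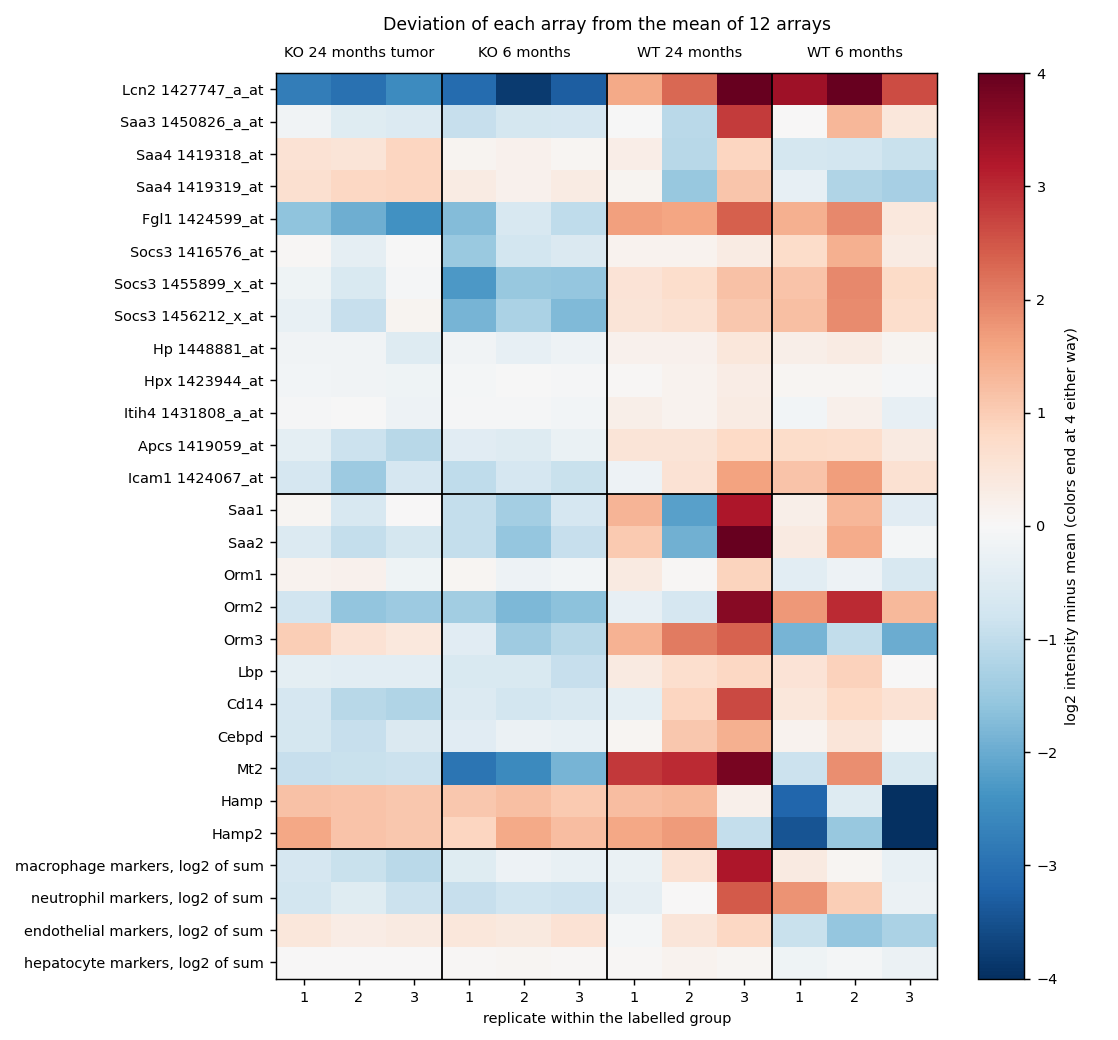
Deviation of each array (columns, by deposited label and replicate) from the mean of 12 arrays on the log2 scale, for the 13 acute phase probe sets, other acute phase genes and the summed markers of 4 cell types (rows); colors end at 4 either way. WT 24 months replicate 3 is the reddest array of its group for Saa3, Saa1, Saa2, Orm2 and the macrophage markers, and the arrays labelled KO are blue for Lcn2.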

How the data were processed

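The authors deposited log2 intensities of 12 arrays, made by RMA with the simpleaffy package in R, that is, background-corrected, quantile-normalized and summarized per probe set. Array medians lay between 5.41 and 5.45. Groups came from the deposited labels. Of 45101 probe sets 34958 name 1 gene, 932 several and 9211 none in the annotation supplied. Differences between the 4 group means over all 12 arrays were fitted in limma (version 3.58.1, R 4.3.3), without a replicate block, with Benjamini-Hochberg adjustment over all probe sets and a call at adjusted p under 0.05. SE are limma's and SD those of 3 arrays. SAM was coded from its definition, with 20 splits. Both were tested on simulated data. The genes named are all members, Iqgap2, from each list up to 5 called genes of smallest adjusted p, the 3 genes most like Lcn2, Hp and Apcs, and the 10 with the widest range in WT 24 months. Members and lists were chosen with earlier results of these data known. Alternatives, changed 1 at a time, are given in the closing section. RefSeq promoters were searched and figures drawn with Python 3.11.15 and matplotlib 3.10.9.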

Additional observations from a re-analysis of the deposited data

Results flagged for a closer look

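By a test of the difference itself, the KO against WT difference of Socs3 on probe set 1455899_x_at differed between the labelled ages, by 2.00 on the log2 scale (SE 0.43, adjusted p = 0.0270 from limma). It was -1.07 at 24 months and -3.08 at 6 months. The other 2 probe sets of Socs3 gave 1.80 and 1.44 and did not pass. Groups of 3 arrays are too small for a test of single outlying arrays.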

How the results depend on the processing

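The replicate numbers did not pair the samples: of 12 pairs of same-numbered arrays 2 had deviations correlated above 0.1 (range -0.24 to 0.19), and 5 of 12 arrays correlated best with their own number. With the number as a replicate block, limma called 3 members in KO 24 months tumor against WT 24 months, 7 in KO 6 months against WT 6 months, 0 in both comparisons by age and 1 in the interaction. Of 259 recomputed differences of called members 0 changed sign, and 24 lost their call. Many alternatives, such as SAM, the fold of 3 and the replicate block, leave the difference as it is. Its sign could not change there. With a fold of 3 or more as a further condition the calls were 2, 6, 0, 0 and 1 in the same order, without Apcs at both ages and Hp at 6 months. The trended and robust variance prior and centering on the array median gave the calls of the unblocked fit, 3, 8, 0, 0 and 1. A fit of only the groups compared called 1 (Fgl1) between KO 24 months tumor and WT 24 months, and 1 (Socs3 1455899_x_at) between KO 24 months tumor and KO 6 months, as did SAM there. In KO 6 months against WT 6 months both called 11 (2 higher, 9 lower) in place of 8. The interaction had 0 calls with 1 probe set per gene, which leaves that Socs3 probe set out, 2 with dim probe sets left out, 2 with array weights and 3 with arrays centered on housekeeping genes, which shifted arrays by -0.16 to 0.30. Leaving out 1 array gave 1 to 4 calls in KO 24 months tumor against WT 24 months (1, Fgl1, without KO 24 months tumor replicate 2), 7 to 11 in KO 6 months against WT 6 months, 0 to 2 in WT by age, 0 to 0 in KO by age and 0 to 3 in the interaction. The median SD of WT 24 months was 0.189 with housekeeping centering and 0.0676 to 0.421 with 1 of its arrays left out. The cause of these changes was not tested. The share of all probe sets called under each alternative is not given here. The counts thus cannot show a change particular to the members. SAM was not run for the interaction or with a fold.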

Other observations

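The genes with the widest range over the 3 arrays labelled WT 24 months were of several kinds. BC023105 read 8.11, 5.79 and 13.26 in replicates 1 to 3, the B cell chemokine gene Cxcl13 read 6.09, 7.80 and 13.04, the chemokine gene Ccl8 read 5.17, 5.17 and 10.73 and the class II histocompatibility gene H2-Eb1 read 8.35, 7.78 and 13.20, all highest in replicate 3 like the acute phase genes. The major urinary protein genes Mup10 and Mup3 and the fatty acid elongase gene Elovl3 were lowest in replicate 2, with 5.14 for Mup10 against 11.73 and 11.81 in the other two. The sulfotransferase gene Sult3a1 ran the other way, with 10.44, 13.51 and 6.82. Saa2 and Saa1 completed the 10 widest.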
